A study of Homo sapiens with 25 samples.

Results

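The regions described here are stretches of the human genome (GRCh38, also called hg38) where the transcription factor NKX2-1 was bound in the lung adenocarcinoma cell line HCC364 and in none of 3 other lines. The NKX2-1 peak lists of HCC364, NCI-H2087, NCI-H358 and NCI-H441 were merged on chromosomes 1 to 22 and X into 145799 regions, of which 85439 were bound in HCC364. A merged region was kept when it overlapped a peak of HCC364 and no peak of the other lines, which left 20410 HCC364-only regions. All 4 are established lung adenocarcinoma lines, used without drug or gene manipulation and fixed with formaldehyde. Chromatin immunoprecipitation followed by sequencing (ChIP-seq) had been done in each with antibodies to NKX2-1 and to the histone marks H3K27ac and H3K4me1. In NCI-H2087 it had also been done for FOXA1, FOXA2, SOX2, c-Jun, EP300, RNA polymerase II, H3K4me3 and CTCF. Every combination of line and antibody is a single library (n = 1), and no replicate spread can be given for a line.

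NKX2-1 is a homeodomain transcription factor that specifies lung epithelium and thyroid and keeps alveolar cells in their differentiated state, and its gene is amplified in some lung adenocarcinomas. H3K4me1 marks enhancers whether or not they are in use, and H3K27ac marks active enhancers and promoters. H3K4me3 marks promoters, and CTCF is a zinc finger protein that anchors chromatin loops and domain boundaries.

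Marker genes matched the epithelial label in part. In HCC364, H3K27ac lay within 1 kb of an annotated gene end at 11 of 14 keratin and junction genes, against 14 of 14 in each other line (over all protein-coding genes 58.7% in HCC364, 58.1% (NCI-H2087), 56.9% (NCI-H358) and 56.2% (NCI-H441)). CLDN7, ESRP1 and GRHL2 were the ones without it. Of 15 alveolar type 2 genes, 10 carried the mark in HCC364, against 9 (NCI-H2087), 6 (NCI-H358) and 10 (NCI-H441). SFTPB and SFTPC were among those with it in HCC364, and SFTPA1, SFTPA2, SFTPD, LAMP3 and PGC lacked it. Of 10 mesenchymal genes, 7 carried the mark in HCC364, VIM and CDH2 among them, and NCI-H2087 had 4, NCI-H358 6 and NCI-H441 5. Of 10 immune genes, 4 carried the mark in HCC364 (CD14, IL7R, CD79A and CD68), against 4 (NCI-H2087), 3 (NCI-H358) and 4 (NCI-H441) in the others. PTPRC, the pan-leukocyte gene, and CD3E of T cells lacked it in HCC364. Whether a difference in cell state between the lines moves with NKX2-1 presence was not tested.

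At some promoters the sequence under an HCC364-only summit can be shown. The 300-base promoter windows of the RefSeq GRCh38.p14 table (250 bases before to 50 after a transcript start, 22132 windows of 15812 protein-coding genes) were compared with the summits. A summit of an HCC364-only region fell into 391 of them, belonging to 370 genes. The 3 of highest NKX2-1 fold are shown first, followed by the next 2 that hold CAAGTG, the core letters of the NKX2 binding motif. They were picked after their values were seen. Each sequence is the 250 bases before the transcript start, read 5′ to 3′ on the strand of the gene, with matches to CAAGTG or its reverse complement in capitals.

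EDA2R, chrX:66639270-66639519, minus strand: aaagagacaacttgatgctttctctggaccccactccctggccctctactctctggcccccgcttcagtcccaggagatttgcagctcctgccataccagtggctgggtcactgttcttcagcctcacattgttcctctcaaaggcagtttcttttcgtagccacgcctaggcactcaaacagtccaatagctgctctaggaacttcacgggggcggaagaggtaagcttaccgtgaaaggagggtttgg
TNK2, chr3:195896776-195897025, minus strand: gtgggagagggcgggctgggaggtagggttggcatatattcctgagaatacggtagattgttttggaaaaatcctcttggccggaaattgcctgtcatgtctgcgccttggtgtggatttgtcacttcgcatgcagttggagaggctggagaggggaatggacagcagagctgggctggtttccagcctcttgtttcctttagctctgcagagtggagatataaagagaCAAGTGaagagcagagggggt
PHACTR1, chr6:12718043-12718292, plus strand: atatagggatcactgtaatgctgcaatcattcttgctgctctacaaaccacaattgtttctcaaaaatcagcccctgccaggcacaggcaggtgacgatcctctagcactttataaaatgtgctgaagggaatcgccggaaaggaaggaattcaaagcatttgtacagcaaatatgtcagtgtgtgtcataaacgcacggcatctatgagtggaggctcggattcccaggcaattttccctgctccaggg
IPCEF1, chr6:154355141-154355390, minus strand: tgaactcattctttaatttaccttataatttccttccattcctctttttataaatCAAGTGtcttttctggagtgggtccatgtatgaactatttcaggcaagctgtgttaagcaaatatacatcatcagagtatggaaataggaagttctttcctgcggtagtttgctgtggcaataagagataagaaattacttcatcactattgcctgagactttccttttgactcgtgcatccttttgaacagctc
TNIP3, chr4:121164322-121164571, minus strand: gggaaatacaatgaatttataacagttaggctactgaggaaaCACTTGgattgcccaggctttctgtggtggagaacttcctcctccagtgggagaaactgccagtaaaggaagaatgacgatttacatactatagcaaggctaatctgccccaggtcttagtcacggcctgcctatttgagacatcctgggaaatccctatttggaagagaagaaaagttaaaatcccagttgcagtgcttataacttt

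EDA2R encodes a receptor of the tumour necrosis factor family, and its promoter held the strongest of these peaks, with a fold of 43.8 over local background and the summit at position -76 from the start. No CAAGTG was found in that window. TNK2 encodes a non-receptor tyrosine kinase. Its summit lay at -101 (fold 28.5) and its single match began at -21. In IPCEF1 the match began at -195 and the summit lay at -184 (fold 15.3). In TNIP3, which encodes an inhibitor of NF-kappa-B signalling, the match was on the opposite strand, began at -208 and lay near the summit at -177 (fold 14.4). H3K27ac was present in HCC364 and in no other line at the promoters of EDA2R, PHACTR1, IPCEF1 and TNIP3. At the TNK2 promoter it was also present in NCI-H2087 and NCI-H441.

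Over the 391 promoter windows with an HCC364-only summit, CAAGTG on either strand was present in 13.8% (54 windows, exact 95% interval 10.5 to 17.6), against 10.4% of all 22132 windows and 10.2% of 2987 windows holding the HCC364 summit of a region bound in 4 lines. GGAATG, the core letters bound by TEAD factors, was present in 17.1% (13.5 to 21.2) against 12.2% of all windows. TGANTCA, bound by AP-1, was present in 9.72% (6.97 to 13.1) against 6.15%. The other motifs searched on both strands were TGTTTAC for forkhead factors (2.30% against 2.85%), TTGGCA for nuclear factor I (13.0% against 11.1%) and CAGGTG for ZEB and SNAI factors (16.1% against 20.0%). For the GGAATG and TGANTCA matches the interval lay above the share over all windows, and for CAAGTG it lay just above. In the 2987 windows of regions bound in 4 lines, GGAATG was at 11.8%, TGANTCA at 7.03%, TGTTTAC at 2.88%, TTGGCA at 11.0% and CAGGTG at 16.0%. The TGANTCA share in those windows lay inside the HCC364-only interval, and the CAGGTG share was nearly that of the HCC364-only windows. A match says that the letters are present, and promoters are a small part of the regions. Of the 391 windows, 291 (74.4%) carried H3K27ac in HCC364. In the other lines 48.8% (NCI-H2087), 51.4% (NCI-H358) and 50.9% (NCI-H441) carried it. For 65 windows HCC364 was the one line with the mark. The shares of all 22132 windows with H3K27ac are not given here.

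NKX2-1 fold, width and presence chose the regions and are given as description. HCC364-only regions had a median fold of 6.51 (5th to 95th percentile 3.96 to 15.8, highest 74.96) and a median width of 356 bp. Regions bound in 4 lines had a median HCC364 fold of 13.7 and a width of 872 bp. The median pileup at the summit was 27 fragments over a local background of 3.14 in the former and 61 over 3.38 in the latter. Few HCC364-only peaks were close to the list's threshold, with 3.45% under a −log10 q of 5. The share was lower for shared regions, at 1.80% with 1 other line, 1.05% with 2 and 0.409% when bound in 4 lines. The nearest NKX2-1 peak of another line lay at a median distance of 7155 bp, with the 10th percentile at 799.9 bp.

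A small number of regions sat at the edge of the rule. There were 66 regions with a peak of another line less than 100 bp away (median fold 4.91), and 22 regions just outside the rule, shared with 1 line by under 50 bp (median fold 4.56). H3K27ac in HCC364 was present at 65.2% of the former and 68.2% of the latter. Regions with the nearest other peak 100 to 1000 bp away made up 12.3%. Of these, 70.2% were acetylated in HCC364, and 54.3% were acetylated in another line. Regions more than 10 kb from any peak of another line made up 41.4%, and 21.4% of them were acetylated in HCC364 and 4.72% in another line. The regions thus ranged from close neighbours of other lines' peaks to isolated sites.

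Both histone marks were more frequent at HCC364-only regions in HCC364 than in any other line. H3K27ac overlapped 7410 of the 20410 regions in HCC364, or 36.3% (exact 95% interval 35.7 to 37.0), where 34.6% of all merged NKX2-1 regions had it. NCI-H2087 had the mark at 11.4%, NCI-H358 at 10.8% and NCI-H441 at 9.69%, where 33.2%, 32.0% and 33.0% of all merged regions had it. The HCC364 share was 25.7 percentage points above the mean of the other lines, 10.6% ± 0.860 (SD, n = 3 lines). HCC364 ranked first of 4, which in an exact one-sided permutation of the line labels gives p = 0.25, the smallest p that 4 lines allow. H3K4me1 was present at 55.0% in HCC364, where 49.1% of all merged regions had it. NCI-H2087 had it at 15.3% (43.1% of all merged regions), NCI-H358 at 19.5% (48.9%) and NCI-H441 at 17.7% (52.7%). The difference was 37.5 percentage points over a mean of 17.5% ± 2.13 (SD, n = 3 lines), again with an exact one-sided permutation p = 0.25. Hence the HCC364 share of each mark was near that over all merged regions, and the shares in the other lines were far below theirs. All merged regions include those not bound in HCC364. Of all regions bound in HCC364, 51.7% had H3K27ac and 65.1% H3K4me1 in that line, so HCC364-only regions were less often marked than these. The regions bound in only 1 of the other lines, chosen by the same rule, also had both marks most often in their own line. H3K27ac was at 27.3% of NCI-H2087-only regions in that line (9.83% to 11.1% elsewhere), 34.95% of NCI-H358-only regions (9.06% to 11.0%) and 23.2% of NCI-H441-only regions (7.70% to 8.88%). H3K4me1 in the own line was at 47.5%, 66.3% and 57.1%. When the rule was applied to the 20000 strongest peaks of each list, so that weaker peaks of other lines no longer counted, it gave 5648 regions with H3K27ac at 68.7% in HCC364 and a difference of 37.8 points.

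**Figure D1:**
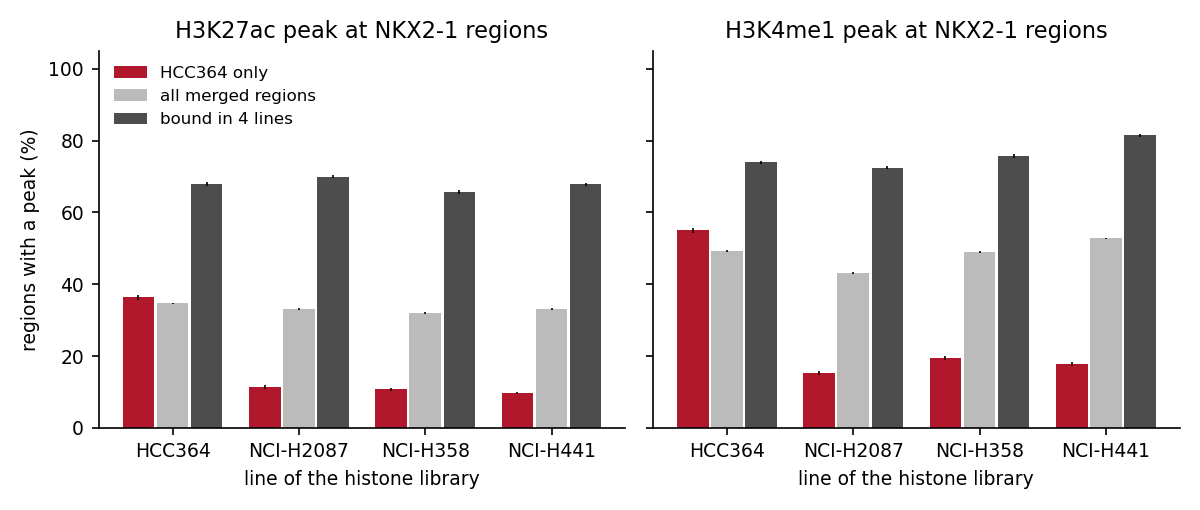
Share of NKX2-1 regions (%) overlapping an H3K27ac peak (left) or H3K4me1 peak (right) in each line, for HCC364-only regions, all merged regions and regions bound in 4 lines; error bars are exact 95% binomial intervals over regions. The HCC364-only bars are tall in HCC364 (36.3% and 55.0%) and between 9.69% and 19.5% in the other lines, whereas regions bound in 4 lines are marked to a similar extent everywhere.

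Marks seen in HCC364 alone were common. H3K27ac was present in HCC364 and no other line at 4480 regions, 21.95% of the HCC364-only regions, against 6.80% of all merged regions. The same count for H3K4me1 was 6487 regions (31.8% against 7.46%). Of all regions bound in HCC364, 10.8% had H3K27ac and 11.5% H3K4me1 in HCC364 and no other line. Acetylation was absent from all 4 lines at 62.2% (47.1% of all merged regions) and present in all 4 at 6.28% (17.5%). The reverse pattern, acetylation in another line without HCC364, was seen at 304 regions (1.49%, against 18.3% of all merged regions and 10.4% of all regions bound in HCC364).

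By the pair of marks in HCC364, the regions fell into 4 unequal classes. Both marks were present at 5111 regions (25.04%, against 25.6% of all merged regions), and H3K4me1 alone at 6113 (30.0% against 23.6%). H3K27ac alone was present at 2299 (11.3% against 9.08%) and neither mark at 6887 (33.7% against 41.8%). Of all regions bound in HCC364, 38.6% had both marks, 26.4% H3K4me1 alone, 13.1% H3K27ac alone and 21.8% neither. Beside these, HCC364-only regions more often had neither mark and less often both. Neither mark was present at 9.17% of HCC364-only regions when the 20000 strongest peaks of each list were used. The class with H3K27ac alone had a promoter profile. Within it, 70.5% of regions overlapped H3K4me3 and 39.0% RNA polymerase II in NCI-H2087, and 41.7% lay within 1 kb of a gene end. In the class with H3K4me1 alone, 1.10% overlapped H3K4me3 and 2.47% lay near a gene end, and in the class with both marks the shares were 7.28% and 6.14%.

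The class with neither mark most often had CTCF. CTCF had been mapped in NCI-H2087, and 4805 HCC364-only regions overlapped one of its peaks there (23.5%, interval 22.96 to 24.1, against 19.7% of all merged regions). The share was higher over all regions bound in HCC364, at 26.2%, and over regions bound in 4 lines, at 28.4%. Among HCC364-only regions it was 45.5% (44.3 to 46.7) in the class with neither mark, 18.6% with H3K27ac alone, 12.2% with H3K4me1 alone and 9.74% with both marks. Among regions bound in 1 line only and with neither mark in that line, CTCF was at 11.5% (NCI-H2087), 27.9% (NCI-H358) and 11.7% (NCI-H441). Regions with neither mark in HCC364 that were also bound elsewhere had CTCF at similar shares, 48.6% when bound in 1 other line, 46.9% in 2 and 53.9% in all 4. The NKX2-1 list of HCC364 covered 35.7% of the 61072 CTCF peaks of NCI-H2087, against 25.3% for the list of NCI-H2087 itself, 26.7% for NCI-H358 and 28.1% for NCI-H441. These shares compare 1 library per line, and whether the antibody, the depth or the cells move with them was not tested.

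**Figure D2:**
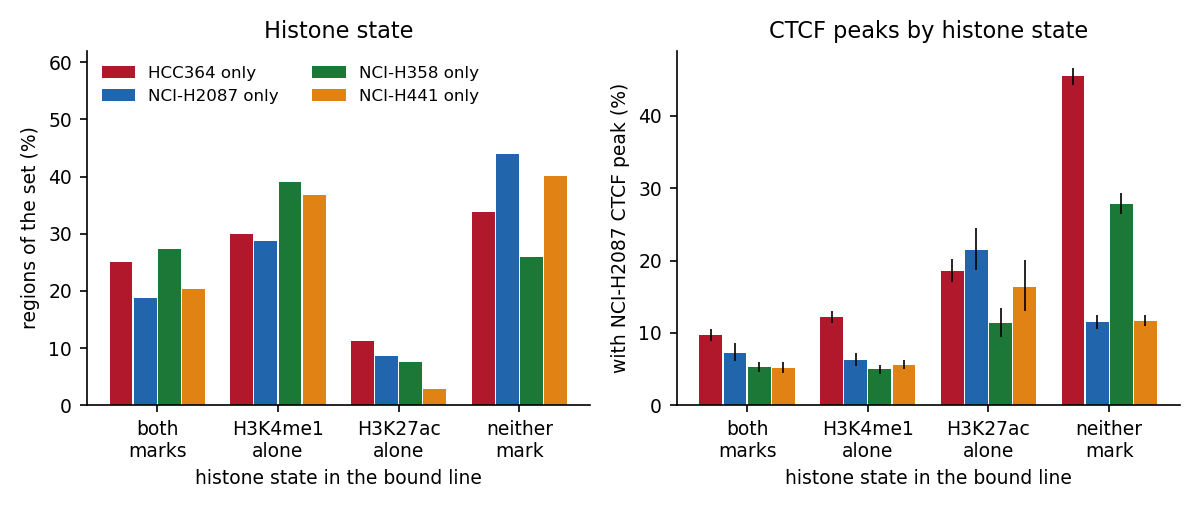
Left, share (%) of the regions bound in 1 line only that carried both marks, H3K4me1 alone, H3K27ac alone or neither mark in that line; right, share (%) of each class with a CTCF peak in NCI-H2087, with exact 95% binomial intervals. The tallest CTCF bar is that of HCC364-only regions with neither mark, at 45.5%.

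The summits of the NKX2-1 and CTCF peaks lay close together at these sites. Among HCC364-only regions with neither mark that overlapped a CTCF peak, 68.5% had the NKX2-1 summit within 50 bp of a CTCF summit, with a median distance of 33 bp. For those with H3K4me1 in HCC364 the share was 48.7% and the median 52 bp. For regions bound in 4 lines with a CTCF peak the share was 34.2% and the median 87 bp. Regions bound in 4 lines were wider, with a median of 872 bp against 312 bp for HCC364-only regions with neither mark. Summit distances were not compared at equal width. No sequence under these summits was read.

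The other factors mapped in NCI-H2087 were seldom at HCC364-only regions, in a line where NKX2-1 itself had no peak there. FOXA1 was at 6.34% (32.5% of all merged regions) and FOXA2 at 7.87% (36.2%), both pioneer factors of lung epithelium. The AP-1 subunit c-Jun was at 0.906% (15.2%), the acetyltransferase EP300 at 0.167% (4.87%), and SOX2 at 8 regions, or 0.0392% (6.08%). RNA polymerase II was at 6.26% (15.4%) and H3K4me3 at 11.2% (14.5%). At least 1 of FOXA1, FOXA2, SOX2, c-Jun and EP300 was present at 9.64% (42.2% of all merged regions). The regions bound only in NCI-H358 and only in NCI-H441, chosen by the same rule, had 14.4% and 13.1%. None of the 10 other NCI-H2087 lists had a peak at 52.9% of HCC364-only regions, against 28.8% of all merged regions, 58.2% of NCI-H358-only and 62.8% of NCI-H441-only regions. With 500 bp windows on summits, c-Jun was at 1.58%, EP300 at 0.5002%, SOX2 at 0.181%, RNA polymerase II at 4.17% and H3K4me3 at 6.37% of HCC364-only regions.

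The marks differed between ranges of peak fold. When all HCC364-bound regions were cut into 5 fold ranges at the quintiles of the HCC364-only regions, H3K27ac in HCC364 was present at 40.3%, 32.5%, 30.1%, 33.4% and 45.2% of HCC364-only regions from the lowest to the highest range. Acetylation was thus lowest in the middle range and higher at both ends. H3K4me1 was at 48.6%, 46.2%, 49.4%, 56.9% and 73.9% in the same order. H3K4me3 of NCI-H2087 went the other way, from 20.3% to 3.60%, and CTCF was lowest in the highest range, at 11.8%. In each range the regions bound in 4 lines were more often acetylated in HCC364 than HCC364-only regions. In the fourth range the median folds were 8.08 (HCC364-only) and 8.24 (bound in 4 lines), but the median widths were unequal, 374 and 774 bp. The shares there were 33.4% of HCC364-only regions and 58.0% of regions bound in 4 lines. In the highest range, which has no upper limit, they were 45.2% and 73.1%, at unequal median folds of 12.2 and 17.8.

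**Figure D3:**
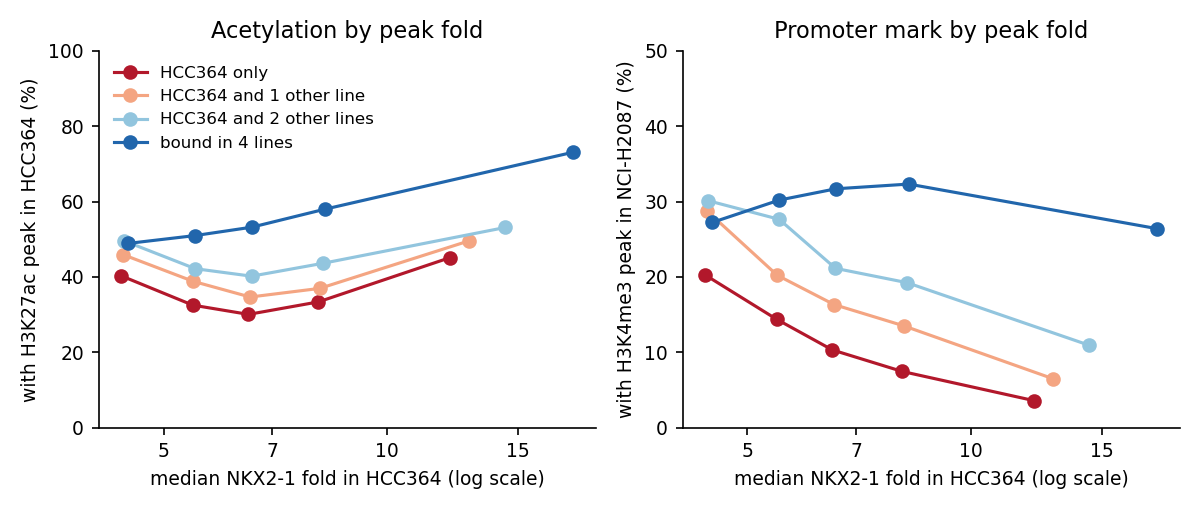
Share of regions (%) with H3K27ac in HCC364 (left) or H3K4me3 in NCI-H2087 (right) against the median NKX2-1 fold of 5 fold ranges (log axis), for HCC364-bound regions by number of other lines bound. The HCC364-only line for H3K27ac dips from 40.3% to 30.1% and ends at 45.2%, below the curves of shared regions throughout, and the H3K4me3 line falls from 20.3% to 3.60%.

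The 10 regions of highest fold were distal. The highest, at chr21:18382860-18383669, had a fold of 74.96 and lay inside TMPRSS15, the gene of the intestinal protease enteropeptidase, 102 kb from its nearer end. The next lay inside CYRIA, a regulator of the actin cytoskeleton, at chr2:16652316-16653290 (fold 72.2). The third, at chr15:91348823-91349699 (fold 66.1), was 46.3 kb from SV2B, a synaptic vesicle protein. The others lay nearest to ARPP21 (63.0), FAM135B (58.5), the cyclin gene CCNE1 (58.0), RBMS3 (57.7), the Mediator subunit gene MED13L (57.3), SH3BP5 (56.9) and EDIL3 (56.3). All 10 carried H3K4me1 in HCC364, 6 of them with H3K27ac (CYRIA, FAM135B, CCNE1, MED13L, SH3BP5 and EDIL3). None of the 10 had either mark in another line.

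By position, HCC364-only regions were less often at genes' ends than shared regions. Within 1 kb of a protein-coding gene end lay 1726 of them, 8.46% (8.08 to 8.85), against 10.5% of all merged regions and 18.5% of regions bound in 4 lines. The shares for regions bound only in NCI-H2087, NCI-H358 and NCI-H441 were 7.84%, 5.57% and 5.46%. More than 50 kb from any gene end lay 39.5% (36.8% of all merged regions), and 53.5% overlapped a gene body (52.8%).

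The share of HCC364-bound regions that were HCC364-only differed between chromosomes. It was highest on X (31.0%), 10 (30.5%), 9 (29.6%) and 22 (29.1%) and lowest on 6 (16.7%), 16 (16.9%), 13 (18.0%) and 14 (19.3%). The local background at NKX2-1 peaks, which can rise with copy number, was set against the other lines as the ratio of HCC364 to their mean, each relative to its own library. It was 1.43 on chromosome 22, 1.37 on chromosome 10 and 0.643 on chromosome 14. The median background of HCC364 on chromosomes 6, 13, 14, 18 and X was the lowest value in its list, as were some of those of the other lines, so such ratios are limited by that floor. Across the 23 chromosomes, which share the same 4 libraries, the ratio and the share moved together (Pearson r = 0.66, Spearman rho = 0.66, as a description). In 1 Mb bins with at least 5 peaks per line, ordered by the same ratio into 4 equal groups, the HCC364-only share was 16.9%, 20.2%, 23.5% and 27.2%. These groups held 3231, 3674, 4308 and 6453 of the 20410 HCC364-only regions. Regions in bins where a line had fewer peaks were left out, and the HCC364-only share there is not given. Acetylation in HCC364 at the HCC364-only regions of these groups was 34.2%, 36.8%, 38.0% and 43.8%. It also rose from the first to the last group in the other lines. The shares went from 11.6% to 14.3% (NCI-H2087), 10.1% to 13.9% (NCI-H358) and 8.70% to 12.5% (NCI-H441). H3K4me1 in HCC364 did not rise steadily, at 57.3%, 55.1%, 52.6% and 60.8%. In the 2 groups of lower ratio together, H3K27ac in HCC364 was at 35.6% and H3K4me1 in HCC364 at 56.1% of HCC364-only regions. Stretches of over 500 kb without any peak in another line held 11.1% (NCI-H2087), 11.0% (NCI-H358) and 10.0% (NCI-H441) of the regions. The rule itself removes regions with NKX2-1 peaks of other lines, and the shares over all HCC364-bound regions are not given here. How far copy number moves with presence was not tested.

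**Figure D4:**
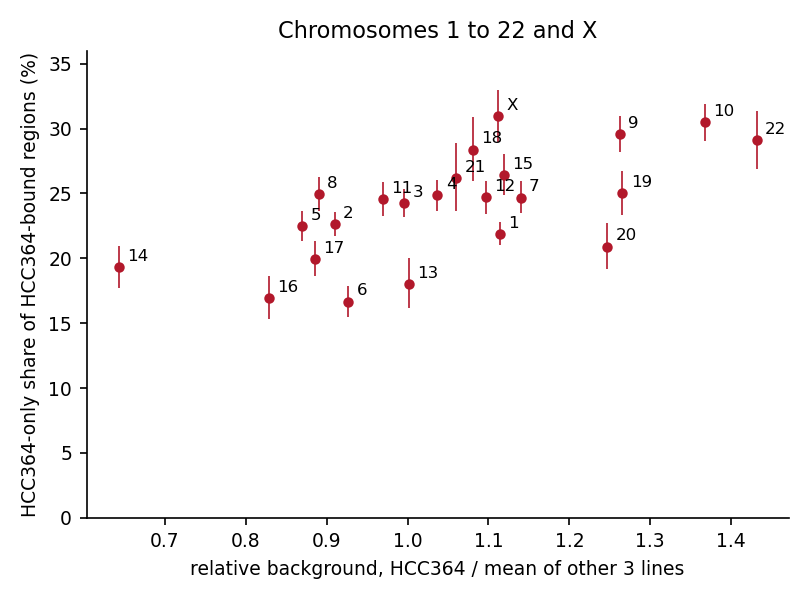
Share (%) of HCC364-bound NKX2-1 regions that were HCC364-only, per chromosome, with exact 95% binomial intervals, against the ratio of the relative local background of HCC364 to the mean of the other 3 lines. Chromosomes 22 and 10, with ratios of 1.43 and 1.37, sit at 29.1% and 30.5%, and chromosome 14, with 0.643, at 19.3%.

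Most regions stood alone, and those in clusters were more often acetylated. Joined at gaps of at most 15 kb, 13390 regions (65.6%) were single and 1092 (5.35%) lay in 237 clusters of 4 or more. The same joining gave 48 such clusters for regions bound only in NCI-H2087, 100 for NCI-H358 and 111 for NCI-H441, from fewer regions. At joining gaps of 5 and 50 kb there were 50 and 1008 such clusters of HCC364-only regions. In clusters of 4 or more, H3K27ac in HCC364 was present at 66.5% (63.6 to 69.3) and neither mark at 11.2%, against 29.6% (28.8 to 30.4) and 39.9% of single regions. CTCF was at 15.8% of clustered and 25.6% of single regions. The median fold was the same to the first decimal, 6.50 and 6.51.

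The second cluster by size lay across one end of DCBLD2, a neuropilin-like membrane receptor. It held 11 HCC364-only regions in 29.1 kb (chr3:98877639-98906734). In that span NKX2-1 had 16 peaks in HCC364, and 4 (NCI-H2087), 2 (NCI-H358) and 3 (NCI-H441) in the others. H3K27ac covered 28.8 kb in HCC364, and 12.4 kb (NCI-H2087), 5.57 kb (NCI-H358) and 11.9 kb (NCI-H441) in the others. Thus all 11 regions were acetylated in HCC364, 7 of them in no other line, whereas 3 carried H3K4me1. Relative background in the surrounding 1 Mb was 1.10 in HCC364 and 1.00 to 1.14 in the others.

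Smaller clusters lay in other genes. CRIM1, a membrane protein that binds bone morphogenetic proteins, had 8 regions at chr2:36355009-36381299, with 22.1 kb of H3K27ac in HCC364, 7.66 kb (NCI-H2087), 4.15 kb (NCI-H358) and 0 (NCI-H441). ZBTB18, a zinc finger repressor, had 8 regions at chr1:244046916-244075202, where H3K27ac covered 7.14 kb in HCC364 and 1.04 to 1.34 kb elsewhere. FBXL7, an F-box subunit of a ubiquitin ligase, had 8 regions at chr5:15499615-15540374 and BNC1, the zinc finger factor basonuclin of stratified epithelium, had 7 at chr15:83278134-83306803. In the spans of FBXL7 and BNC1 no other line had any NKX2-1 peak. H3K27ac in the BNC1 span covered 10.4 kb in HCC364, 0.326 kb in NCI-H2087 and 0 in the remaining lines, and the median fold there was 15.5. MYO18A, an unconventional myosin, had 7 regions, with 13.9 kb of H3K27ac in HCC364 and 4.57 to 10.4 kb elsewhere.

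The third cluster by size lay where the background differed between lines. It held 10 regions in the long non-coding gene MIR31HG (chr9:21551474-21590409), all acetylated in HCC364 but 1 in HCC364 alone. Relative background was 1.23 in HCC364 and 0.674 to 0.730 in the others, the latter at the lowest value that the peak caller wrote in each of those libraries and so upper limits. A cluster of 7 at AURKA, the mitotic kinase gene, with CSTF1 and CASS4, was named after its values were seen. H3K27ac covered 27.5 kb in HCC364 and 3.62 to 4.93 kb in the others, and relative background was 1.55 against 0.743 to 0.929.

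**Figure D5:**
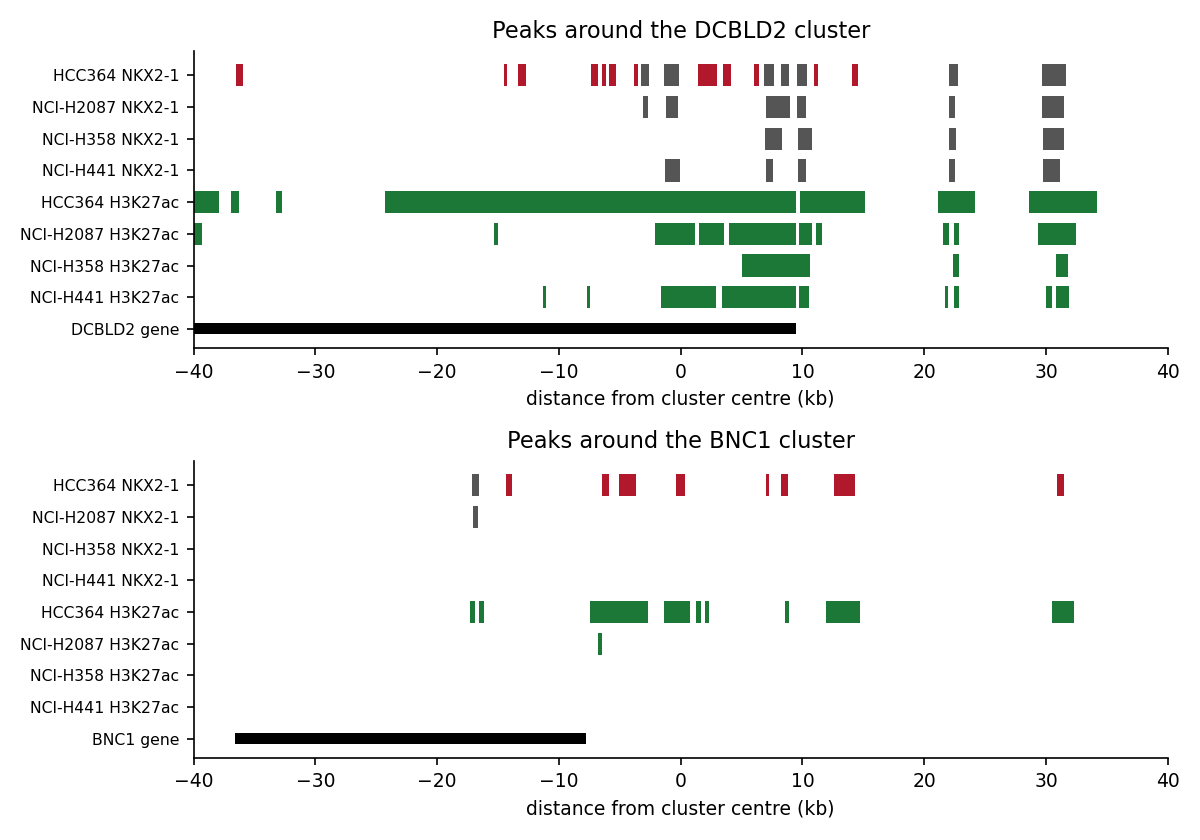
NKX2-1 peaks (red, HCC364-only; grey, other) and H3K27ac peaks (green) of the 4 lines within 40 kb of the centre of the clusters at DCBLD2 (top) and BNC1 (bottom), with the annotated gene in black; the x axis is distance from the cluster centre in kb. At DCBLD2 the HCC364 acetylation is nearly continuous over the red peaks (28.8 kb of the 29.1 kb span). In the span of the BNC1 cluster the other lines have no NKX2-1 peak, whereas in that of DCBLD2 each has some. Red peaks overlap no NKX2-1 peak of another line by definition.

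When each region was given to the closest protein-coding gene with an end inside 50 kb, 12350 regions (60.5%) fell to 7410 genes. A region within 50 kb was common: 12752 of 19974 genes had one (63.8%), with a median of 1 and a mean of 1.34 per gene. DPYSL2, a microtubule-binding protein of axon growth, had 14 of its 19 merged NKX2-1 regions HCC364-only. DCBLD2 had 14 of 23, and the glutamate transporter gene SLC1A2 had 10 of 13. ZBTB18 had 10 of 13, the RNA-binding protein gene BICC1 10 of 19, and CRIM1 10 of 22. BNC1 had 9 of 10, the adhesion gene KIRREL1 9 of 14, and ZNRF3, a ubiquitin ligase that removes Wnt receptors, 9 of 15. NRP1, a co-receptor for semaphorins and vascular endothelial growth factor, had 9 of 37, and FBXL7 had 8 of 9. NRP1 and CRIM1 thus had most of their NKX2-1 regions shared with another line or bound elsewhere, while BNC1 and FBXL7 had few others.

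Regions newly acetylated, meaning with H3K27ac in HCC364 and no other line, were assigned to 2206 genes (11.0%). DPYSL2 had 10, DCBLD2 9, and ZBTB18 and BICC1 7 each. The ranking also brought in EVC, a ciliary protein of hedgehog signalling, with 7 of 7 merged regions HCC364-only and newly acetylated. CD44, the hyaluronan receptor, had 7, SLC1A2 6, the transcriptional co-regulator gene ZMIZ1 6, and SMAD6, an inhibitor of bone morphogenetic protein signalling, 6.

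Acetylated length over each gene and 50 kb to either side differed in the same loci. At DPYSL2 it was 46.5 kb in HCC364, 1.00 kb (NCI-H2087), 3.76 kb (NCI-H358) and 6.33 kb (NCI-H441). At CD44 it was 63.5, 15.0, 4.87 and 3.61 kb in the same order of lines. At EVC it was 25.9 and 0.545 kb in the first and second of these lines and 0 in the others. SLC1A2, which neighbours CD44, had 24.3 kb in HCC364 and 0.966 to 3.09 kb in the others, and none of the lines had the mark at its gene ends. At NRP1 the length was 161 kb in HCC364 and 42.1 to 60.9 kb in the others. SMAD6 had 45.8 kb against 0.501 to 7.12 kb, and ZMIZ1 101 kb against 16.2 to 26.3 kb. These lengths are not independent of the choice of genes by newly acetylated regions. The HCC364 H3K27ac list was the longest of the 4, with 56384 peaks against 47136 to 51482.

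At 279 of the 19974 protein-coding genes an annotated end lay within 1 kb of a newly acetylated region. The same count for all HCC364-bound regions is not given here, so 279 cannot be called many or few. EDA2R had the strongest, at chrX:66638628-66639698, and 2 of its 2 merged regions were HCC364-only; H3K27ac within 50 kb was 3.18 kb in HCC364 and 0 elsewhere. It was followed by PHACTR1, a regulator of actin and protein phosphatase 1 (fold 24.3), SLC9C2 of the sodium-proton exchanger family (23.1), and ANXA5, a phospholipid-binding annexin (23.01). PPARGC1B, a co-activator of mitochondrial genes, and PDE6A, the rod phosphodiesterase, shared 1 region at their overlapping ends (chr5:149857464-149858063, fold 21.1). BDKRB1, the inducible bradykinin receptor, had one with fold 20.4, and CTXND2 one with fold 19.7. At ANXA5 acetylated length was 25.8 kb in HCC364 and 2.40 to 6.15 kb in the others.

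The gene groups are described by the number of members with an HCC364-only region within 50 kb, beside 63.8% of all genes and a median of 1. All 10 spectrin and cytoskeleton genes had one, with a median of 4. SPTBN1, beta-spectrin, had 9, the focal adhesion protein gene VCL 7, and MYH9, a non-muscle myosin heavy chain, 5. In the TGF-beta group 9 of 10 had one, with a median of 3. The ligand gene TGFB2 had 8, 5 of the 7 assigned to it newly acetylated. Acetylated length at TGFB2 was 84.1 kb in HCC364 and 12.9 to 21.3 kb in the others. The housekeeping group also had 9 of 10 with a median of 3, led by GAPDH and RPLP0 with 4 each. Acetylated length at GAPDH was 34.3 kb in HCC364 and 9.96 to 12.7 kb in the others, and at RPLP0 52.3 and 19.3 to 29.6 kb. At TBP and YWHAZ it was not longest in HCC364 (5.65 and 28.5 kb, against 7.46 and 29.8 kb in NCI-H358). An excess in HCC364 was thus also seen at housekeeping genes, and no length over all genes is given here.

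Of 10 mesenchymal genes, 9 had a region within 50 kb, with a median of 2. The intermediate filament gene VIM had 6, N-cadherin (CDH2) 5 and the matrix protein gene TGFBI 4. CDH2 had 5 of its 6 merged regions HCC364-only, and acetylated length was 12.6 kb in HCC364, 0.438 kb in NCI-H358 and 0 in the others. In the YAP and TEAD group 9 of 10 had one (median 2.5), led by ANKRD1 with 7 and by YAP1, WWTR1 and TEAD1 with 4 each. All 4 nuclear factor I genes had one (median 3), with NFIC and NFIX at 4. At NFIC acetylated length was 49.7 kb in HCC364 and 8.84 to 10.3 kb in the others.

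The lung epithelial groups gave the following counts. Of 12 lung and foregut transcription factor genes, 9 had a region within 50 kb (median 1), with FOXA2 and ID2 at 2 each. FOXA1 and SOX2 had none, and acetylated length at FOXA1 was 1.13 kb in HCC364 against 15.2 to 21.9 kb in the others. Of 15 alveolar type 2 genes, 11 had one (median 2, mean 2.53, beside a mean of 1.34 over all genes). LPCAT1, which makes surfactant phospholipid, had 8, and HHIP, an inhibitor of hedgehog ligands, had 7, 4 of them newly acetylated. Acetylated length at HHIP was 3.23 kb in HCC364 and 0 in each other line. Of 10 alveolar type 1 genes, 7 had one, none newly acetylated. Of 14 keratin and junction genes, 8 had one (median 1), with 2 each at JUP and TJP1.

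Signalling and other lineage groups gave mixed counts. In the axon guidance group 10 of 14 had one (median 2), with DPYSL2 at 14, NRP1 at 9 and NRP2 at 6. Of 15 genes of MAPK output and feedback, 12 had one (median 2), led by the RAS pathway inhibitor SPRED1 with 5 and EPHA4 and PHLDA1 with 4 each. Of 9 AP-1 genes, 7 had one, with FOSL2 at 7 and JUND at 4. Counts were 7 of 10 for neuroendocrine genes, 8 of 10 for the HOXB genes, which share regions as neighbours, and 5 of 10 for the basal and squamous group, where BNC1 had 9. They were 5 of 10 each for the gastric, intestinal and hepatic group (HNF4A and FGA 2 each) and the airway secretory group (MUC5AC 2), and 4 of 10 for immune genes (PTPRC 4).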

How the data were processed

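ChIP-seq peak lists of 20 libraries were analysed, of 25 samples. The 5 input samples were not analysed here. The submitters' processing notes name build hg38 and list MACS2 in versions 2.1.1 and 2.2.7.1, bedtools, Trimmomatic 0.36, SAMtools 1.9 and Bowtie2 2.2.9. The notes do not say which MACS2 version made which list. The deposited lists were called per library. In them the fold over local background is a linear ratio, and p and q are given as −log10 values by the authors' peak caller. The deposited column 10, read as the summit offset, is a distance from the peak start. Read depth is not given in the files, so no depth-based precision can be stated. A missing peak is not missing protein.

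Peaks on chromosomes 1 to 22 and X were merged, and a peak counted at a region when it overlapped by at least 1 bp. Intervals on shares are Clopper-Pearson 95% intervals. They cover counting error only, and regions near each other are not independent. Pileup and background were solved from fold and p. Line labels were permuted exactly (4 assignments, one-sided). Genes and promoters are those of RefSeq GRCh38.p14. Its gene table gives ends without the transcript start, so either end was used. No genome was used here, so the bases under distal summits were not searched. All 203 listed genes were found. Named genes are the 12 with the most HCC364-only regions, the 10 with the most newly acetylated ones, those of the 8 largest clusters, the 8 with the strongest newly acetylated region at a gene end, the 3 leading members of each list and the 10 strongest regions. Members, lists and rules were chosen with earlier results of these data known. Functions were tested on simulated intervals. Python 3.11.15, numpy 2.4.6, pandas 2.3.3 and scipy 1.17.1 were used. Alternatives covered peak strength, region width, spacing, left-out lines, background and gene windows. Some genes that meet the rule for named genes are not reported here.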

Additional observations from a re-analysis of the deposited data

How the results depend on the processing

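The percentage-point excess of both marks in HCC364 over the mean of the other lines was above 0 in all 22 recomputed differences. Shares moved as follows, in the order H3K27ac, H3K4me1, H3K27ac in no other line, neither mark and within 1 kb of a gene end (36.3%, 55.0%, 21.95%, 33.7% and 8.46% as reported). With the 20000 strongest peaks of each list, the rule gave 5648 regions, which may have a weaker peak in another line, and the shares were 68.7%, 82.4%, 27.7%, 9.17% and 9.93%. With 500 bp windows on summits they were 25.6%, 39.7%, 17.4%, 46.3% and 9.24%. Leaving out each other line in turn (leave-one-out) gave 23871 to 28206 regions, differences of 24.8 to 26.4 points (H3K27ac) and 34.7 to 38.0 points (H3K4me1), and shares of 36.3% to 38.3%, 53.6% to 58.2%, 22.6% to 24.0%, 31.4% to 34.5% and 8.32% to 9.75%. For a −log10 q of at least 10, H3K4me1 was at 58.2%, H3K27ac in no other line at 24.5% and gene ends at 6.77%. Without regions that had another line's peak within 1 kb, H3K27ac was at 31.4%, neither mark at 37.1% and gene ends at 6.33%. The share at transcript starts in place of gene ends was 6.87%, and within 5 kb of gene ends 20.3%. Clusters of 4 or more numbered 50 at a joining gap of 5 kb and 1008 at 50 kb. The share of genes with a region was 30.1% at 10 kb and 79.2% at 100 kb. CTCF at regions with neither mark was 50.4% with the 20000 strongest peaks and 34.1% in 500 bp windows.

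Further alternatives were chosen after seeing the data. In 300 bp windows on HCC364 summits, H3K27ac was at 35.02%, H3K4me1 at 51.5% and neither mark at 35.6%. Without CTCF sites the first 4 shares were 41.6%, 63.9%, 25.7% and 24.1%. Without long stretches lacking peaks in another line all 5 were 40.8%, 58.0%, 23.7%, 29.2% and 9.68%. In bins of low relative HCC364 background H3K27ac was at 35.6%, H3K4me1 at 56.1%, neither mark at 32.9% and gene ends at 7.63%. The cause of these shifts was not tested, beyond the regions each alternative leaves out. No paired analysis was possible because each line and antibody is 1 library and the lines share no replicate numbers. Read depth is unknown, and 4 lines allow no p below 0.25.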
